A study of Mus musculus with 4 samples.

Results

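The genes described here make, break down, carry or sense glycine and D-serine in the brain. They are Dao, Srr, Slc7a10, Slc6a5, Slc6a9, Glra1, Glra2, Glra3 and Glrb, 9 genes of the 19057 named on the array. They were chosen by name for their role, with earlier results of these data known. Every probe whose symbol in the platform annotation is one of them was taken. That gave 16 probes of the 45281 on the array. The samples were total RNA of mouse brain, 2 Atm-/- and 2 Atm+/+, each read on 1 Illumina bead array. Their strain, mixed 129J x C57BL/6, was shared by both genotypes. Atm encodes a kinase of the response to broken DNA, and the series title sets the arrays in work on EZH2, an enzyme that trimethylates a lysine of histone H3, in ataxia-telangiectasia. The labels used here give neither the Atm allele, age and sex of the mice nor the part of the brain taken, and they do not say whether each sample is an animal of its own. The p-values below therefore rest on sample-to-sample spread that may be only technical.

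Glycine is the main fast inhibitory transmitter of the brainstem and spinal cord, where it opens chloride channels built from alpha subunits (Glra1 to Glra3 in this set) and the beta subunit Glrb, which ties the channel to the scaffold protein gephyrin. Slc6a5 reloads glycinergic nerve endings with glycine and Slc6a9, found mostly on glia, clears it from the cleft. Glycine is also a co-agonist of NMDA-type glutamate receptors, and so is D-serine, which serine racemase (Srr) makes from L-serine, Slc7a10 carries across the membrane and D-amino acid oxidase (Dao) degrades. Dao is known to be active mainly in the cerebellum and brainstem, where astrocytes hold much of it, whereas D-serine itself is abundant in the forebrain.

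In Atm-/- brain, Dao, Glra1 and the glycine transporter gene Slc6a9 were lower and 1 of the 3 probes of Srr was higher. Of the 16 probes, 11 were bright enough to test, 4 fell and 1 rose. Among all 22383 tested probes, 13.0% passed the same threshold, 6.06% lower and 6.98% higher in Atm-/-. A tested probe was above the background level of 5.64 log2 units on at least 2 arrays, and the threshold was a Benjamini-Hochberg adjusted p under 0.05 in limma over all tested probes. Differences are Atm-/- minus Atm+/+ on the log2 scale with their moderated standard error (SE). Of the 11 tested probes, 3 were above background on the Atm+/+ arrays alone, so they entered the test through the genotype in which they are high. The arrays of the genotypes did not overlap at 10 of the 11, against 59.8% of all tested probes. At the 3 probes above background in Atm+/+ alone, the filter itself fixed that separation, so they add nothing to this count. Of those 3 probes 2 passed the threshold. At the 8 member probes above background on all 4 arrays 2 fell and 1 rose, with a median difference of -0.17, against -0.03 for all probes above background on all 4 arrays. In a fit of the 17024 probes above background on all 4 arrays, 2422 passed, 1164 of them lower in Atm-/-. Among the falls at the 8 member probes was Dao ILMN_2862633, whose Atm-/- values of 5.70 and 5.64 lay just above the level. In whole tissue, fewer cells of a type and less RNA per cell cannot be told apart.

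**Figure D1:**
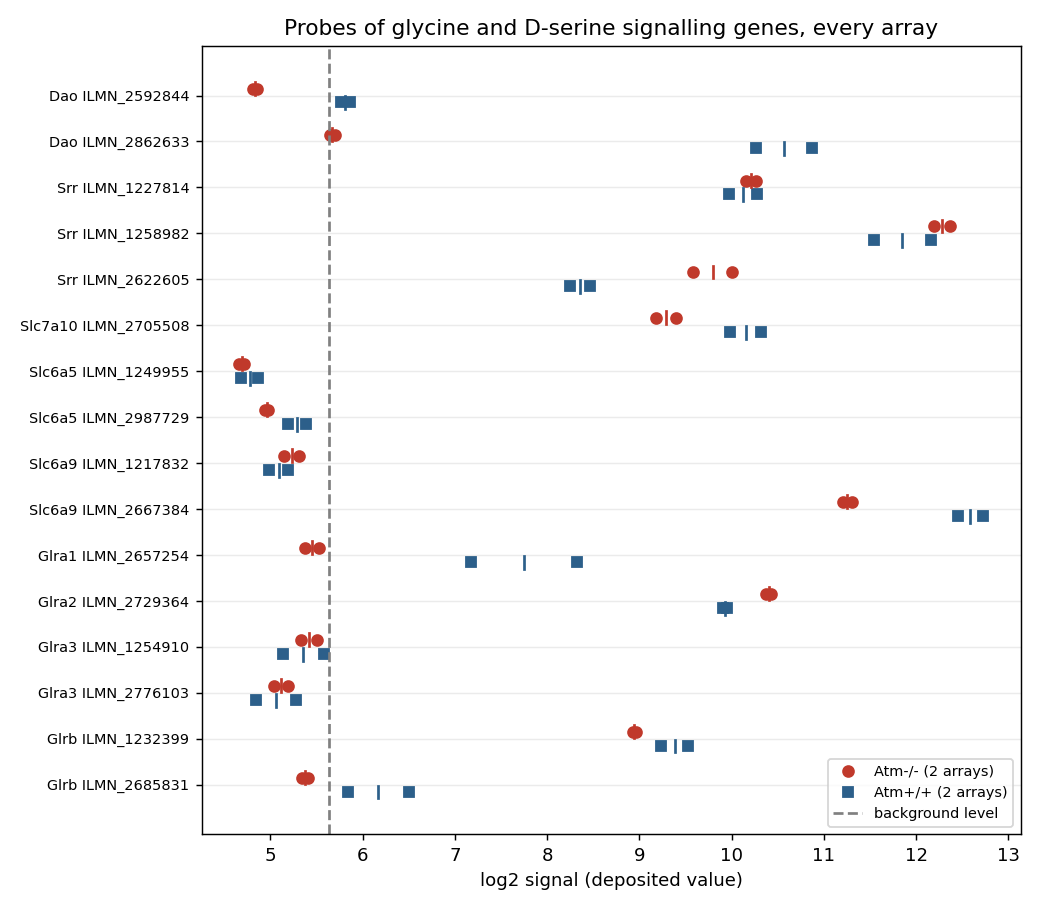
Log2 signal (horizontal axis) of each of the 16 probes on the 2 Atm-/- arrays (circles) and the 2 Atm+/+ arrays (squares), with short lines at the means and the background level of 5.64 dashed. The widest gap is at Dao ILMN_2862633, and the 5 probes of Slc6a5, Glra3 and Slc6a9 ILMN_1217832 lie left of the dashed line on all 4 arrays.

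Markers of brain regions differed between the genotypes in the same samples as every value below. Of 9 tested cerebellar genes 7 fell and 0 rose, and 7 of 9 tested Hox genes, which mark hindbrain and cord, fell and 0 rose, while of 10 tested forebrain genes 9 rose and 0 fell. The background for such counts, with each gene read by its brightest tested probe, was 6.89% lower and 7.50% higher among 12229 genes. The log2 of the summed linear signal of the cerebellar list was 11.62 and 11.36 on the Atm-/- arrays and 15.74 and 15.37 on the Atm+/+ arrays. For the Hox list it was 8.84 and 8.52 in Atm-/-, against 11.80 and 12.68 in Atm+/+, and for the forebrain list 16.06 and 15.90 in Atm-/-, against 12.94 and 12.92 in Atm+/+. On both Atm-/- arrays, 5 of the 9 cerebellar genes were at background, among them Pcp2 of Purkinje cells and Gabra6 of granule cells, and so were 7 of the 9 Hox genes. Calb1, Car8 and Cbln3 of the cerebellar list were too dim to be tested, so they say nothing on a difference. On both Atm+/+ arrays, 4 of the 10 forebrain genes were at background, including the cortical factor gene Tbr1. Genes at background in 1 genotype entered the test only through the other, in which they are high. A call in the opposite direction was hardly possible for them, which limits the counts of these lists. Genotype and brain region sampled cannot be told apart in these arrays. Atm itself fell to background in Atm-/- at ILMN_1258206 (5.59 and 5.27, against 7.75 and 7.84 in Atm+/+, limma adjusted p = 0.00224). It did so too at ILMN_2783896 (5.09 and 5.14, against 6.25 and 6.67 in Atm+/+, limma adjusted p = 0.0205), and its probe ILMN_2647620 was too dim to be tested. Its probe ILMN_2492491, for which the annotation names no transcript, read 9.66 and 10.61 in Atm-/- and 9.72 and 9.32 in Atm+/+ and did not pass (adjusted p = 0.308).

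Among the enzymes, Dao showed the widest difference of the set. At probe ILMN_2862633 the Atm-/- arrays read 5.70 and 5.64, and the Atm+/+ arrays read 10.26 and 10.87. Both Atm-/- values lay just above the background level, so that the 29.8-fold lower signal is close to a bound. The difference was -4.90 ± 0.29 (SE, n = 2 per genotype, limma adjusted p = 0.000321), and the call held with any 1 array left out (adjusted p at most 0.000436). At the dimmer probe ILMN_2592844 the signal was 4.82 and 4.85 in Atm-/- and 5.76 and 5.86 in Atm+/+. Here Atm-/- was at background and Atm+/+ only just above it, at least 1.13-fold apart, with a fitted difference of -0.98 ± 0.25 (adjusted p = 0.0435). This second call was lost without either Atm-/- array (adjusted p 0.406 without replicate 1 and 0.385 without replicate 2). ILMN_2592844 was above background in Atm+/+ alone and entered the test through that genotype. Its direction was therefore set by the filter and adds nothing to that of ILMN_2862633. Both the fall of Dao and its size rest on ILMN_2862633.

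Srr, the enzyme that makes the D-serine Dao degrades, was read by 3 probes that differed. Probe ILMN_2622605, which the annotation assigns to the RefSeq mRNA, read 9.58 and 10.01 in Atm-/- and 8.46 and 8.25 in Atm+/+. It rose by 1.44 ± 0.28 (2.71-fold, adjusted p = 0.0176), with a gap of 1.12 between the genotypes. Leaving out Atm-/- replicate 1 ended this call (adjusted p = 0.104), as did leaving out Atm-/- replicate 2 (adjusted p = 0.253). The other probes are assigned to other cDNA records of the gene. ILMN_1258982 read 12.37 and 12.19 in Atm-/- and 12.16 and 11.54 in Atm+/+, a difference of 0.43 ± 0.30 (adjusted p = 0.374). With Atm+/+ replicate 1 left out that difference was 0.74. With Atm+/+ replicate 2 left out it was 0.13. ILMN_1227814 read 10.27 and 10.16 in Atm-/- and 9.97 and 10.27 in Atm+/+, with the genotypes overlapping and a difference of 0.09 ± 0.26 (adjusted p = 0.853). With all 4 arrays the rise of Srr was thus seen at 1 probe of 3. Whether the 3 probes differ from each other was not tested.

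Slc7a10, the exchanger that moves D-serine and small neutral amino acids across the membrane, was read by 1 probe. Its signal was 9.40 and 9.18 in Atm-/- and 10.32 and 9.98 in Atm+/+. The arrays did not overlap, but the difference of -0.86 ± 0.27 did not pass the threshold (adjusted p = 0.0786), and its unadjusted 95% interval ran from -1.49 to -0.23. The difference was -0.69 with Atm+/+ replicate 1 dropped and -1.03 with Atm+/+ replicate 2 dropped.

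The glycine transporters gave a reading for Slc6a9 only. Slc6a9 at ILMN_2667384 read 11.30 and 11.21 in Atm-/- and 12.45 and 12.73 in Atm+/+. The genotypes lay 1.15 apart at their nearest arrays. It fell by 1.33 ± 0.26 on the log2 scale, with 2.52-fold more signal in Atm+/+ (adjusted p = 0.0180). It did not pass when Atm-/- replicate 1 (adjusted p = 0.188) or Atm-/- replicate 2 (adjusted p = 0.228) was dropped. Its other probe, ILMN_1217832, was at background on all 4 arrays. Slc6a5, the transporter of glycinergic neurons, was at background on all 4 arrays at both of its probes. ILMN_2987729 read 4.94 and 4.97 in Atm-/- and 5.19 and 5.38 in Atm+/+, and ILMN_1249955 read 4.71 and 4.66 in Atm-/- and 4.87 and 4.68 in Atm+/+. A probe at background sets no level, so a difference in Slc6a5 could not be detected here.

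Among the receptor subunits Glra1 fell, and Glra2 and Glrb did not pass the threshold. Glra1, the alpha subunit of the adult glycine receptor in brainstem and spinal cord, read 5.52 and 5.38 in Atm-/- and 7.17 and 8.33 in Atm+/+. Atm-/- was at background on both arrays, which makes Glra1 at least 4.32-fold lower there, and the fitted difference was -2.30 ± 0.39 (adjusted p = 0.0116). The Atm+/+ arrays lay 1.15 apart, the widest spread of any member probe between samples of 1 genotype. With Atm-/- replicate 1 dropped the call held (adjusted p = 0.0422), and with Atm-/- replicate 2 dropped it did not (adjusted p = 0.0574).

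Glra2, the alpha subunit that prevails before birth, gave close replicate values in both genotypes. It read 10.43 and 10.38 in Atm-/- and 9.95 and 9.90 in Atm+/+. The difference of 0.48 ± 0.25 did not pass (adjusted p = 0.244), and its 95% interval ran from -0.10 to 1.06. Glra3 was at background on all 4 arrays at both probes, with readings between 4.85 and 5.58.

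Glrb, the beta subunit shared by adult glycine receptors, was read by 2 tested probes. ILMN_1232399 read 8.96 and 8.93 in Atm-/- and 9.53 and 9.24 in Atm+/+, a difference of -0.44 ± 0.26 (adjusted p = 0.301). ILMN_2685831 was at background in Atm-/-, at 5.35 and 5.40, and read 6.50 and 5.84 in Atm+/+, at least 1.44-fold lower in Atm-/-, with a fitted difference of -0.79 ± 0.30 (adjusted p = 0.130). ILMN_1232399 was lower on every Atm-/- array than on any Atm+/+ array. ILMN_2685831 entered the test through Atm+/+ alone, so the filter fixed its separation and direction. Neither probe passed the threshold with all arrays. At the dimmer probe the difference was -1.12 once Atm+/+ replicate 2 was dropped and -0.46 once Atm+/+ replicate 1 was dropped.

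**Figure D2:**
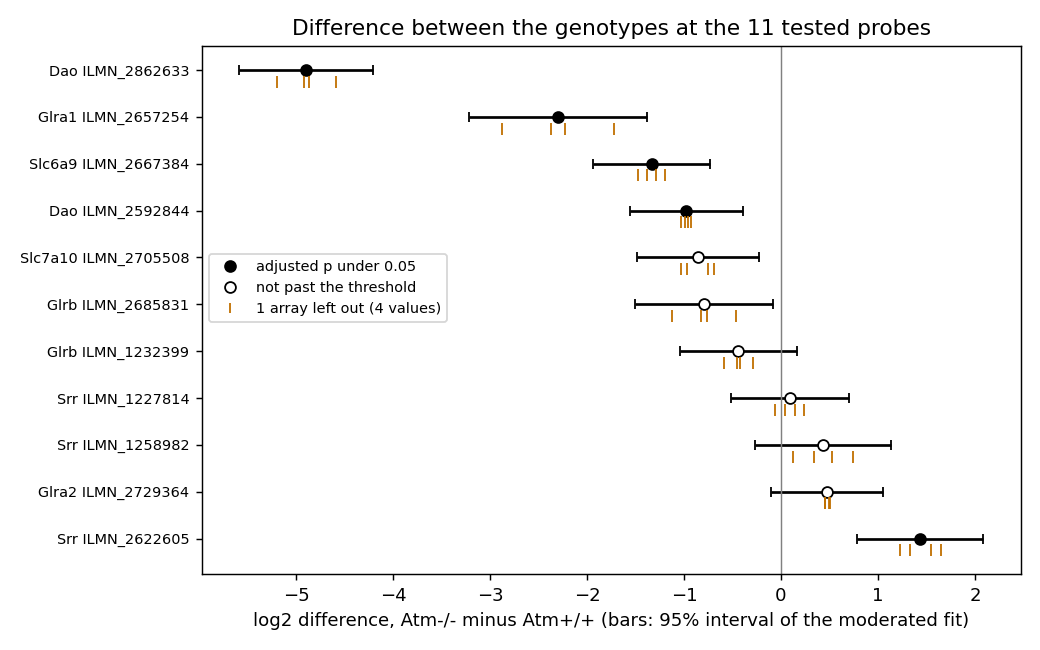
Log2 difference, Atm-/- minus Atm+/+, of the 11 tested probes with the unadjusted 95% interval of the moderated fit; filled points passed an adjusted p under 0.05 and ticks below each point are the 4 values with 1 array left out. Dao ILMN_2862633 stands at -4.90 and Srr ILMN_2622605 at 1.44, and only Srr ILMN_1227814 has a tick on the other side of 0.

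**Figure D3:**
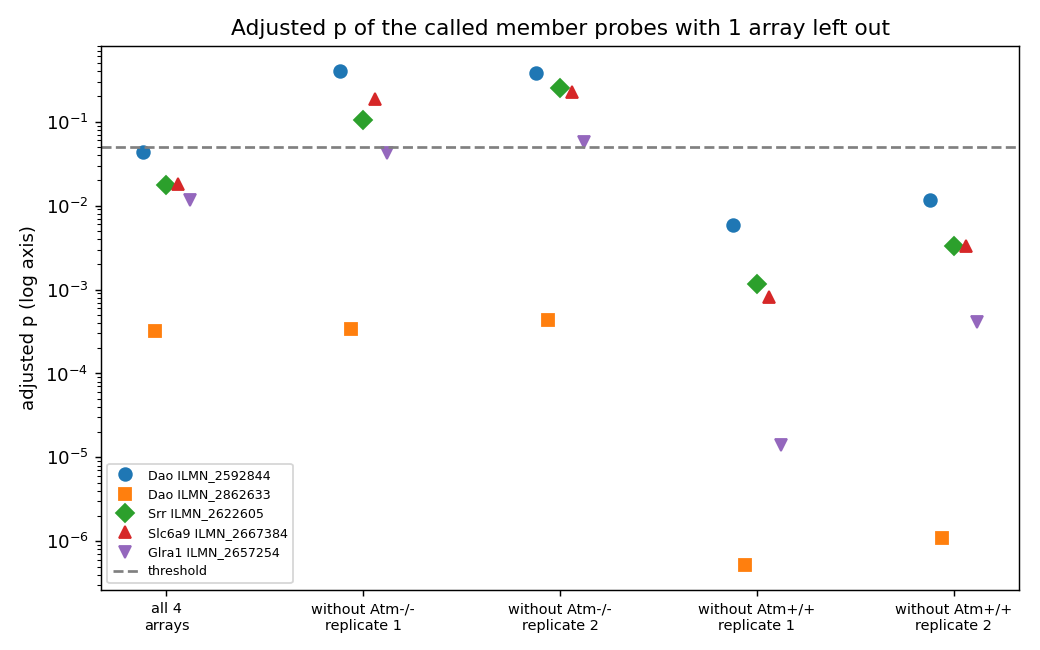
Adjusted p (log axis) of the 5 member probes past the threshold, with all 4 arrays and with each array left out; the dashed line is 0.05. Dao ILMN_2862633 stays below the line throughout, while the other 4 probes cross it in at least 1 of the fits that leave out an Atm-/- array.

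Replicates within a genotype were far apart in Atm+/+ and close in Atm-/-. Over all tested probes, 11.3% differed more than 2-fold between the Atm+/+ arrays and 0.737% between the Atm-/- arrays. Among the tested member probes, Dao ILMN_2862633 was 0.61 higher, Dao ILMN_2592844 0.10 higher, Srr ILMN_1227814 0.30 higher, Slc6a9 ILMN_2667384 0.28 higher and Glra1 1.15 higher in Atm+/+ replicate 2 than in replicate 1. The tested probes at which replicate 2 was the lower differed by -0.66 at Glrb ILMN_2685831, -0.62 at Srr ILMN_1258982, -0.34 at Slc7a10, -0.30 at Glrb ILMN_1232399, -0.22 at Srr ILMN_2622605 and -0.05 at Glra2. The Hox list had a median of 0.68 for that difference, with 6 of 9 genes higher in replicate 2, and the cerebellar list a median of 0.00, with 4 of 9 higher. Whether the tissue taken has a part in these differences was not tested.

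Several members are known from astrocytes, and of 10 tested astrocyte genes 4 fell, 0 rose and 6 did not pass. At background in either genotype were 0 of the 10. The median difference was -0.92, against -0.01 for all genes with a tested probe. The falls were the calcium-binding protein gene S100b at -2.34, the water channel gene Aqp4 at -1.93, the filament gene Gfap at -2.19 and Aldoc, which encodes aldolase C, at -1.31 (adjusted p 0.00316 to 0.0275). Others did not pass, among them the glutamate transporter genes Slc1a3 at -0.54 and Slc1a2 at 0.52 and the gap junction gene Gja1 at -0.39. Fgfr3 did not pass at its brightest probe (-1.31, limma adjusted p = 0.0505) but passed at ILMN_2590766 (-1.36, limma adjusted p = 0.0276). The log2 summed signal of the list was 15.81 and 15.82 in Atm-/-, against 16.58 and 16.74 in Atm+/+. Gdf10, a gene of the Bergmann glia of the cerebellum, was 9.23 and 9.25 in Atm-/- and 12.07 on both Atm+/+ arrays (adjusted p = 0.000938). The part of these cells in the Dao, Slc6a9 and Slc7a10 values was not tested.

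Genes that make or split serine and glycine showed no call. Of 8 tested genes of serine and glycine metabolism 0 passed in limma at the brightest probe, 2 were lower at an unadjusted p under 0.05 (Ddo and Psat1), and the median was -0.15. Phgdh, which opens the serine synthesis pathway, read 9.96 and 9.82 in Atm-/- and 9.51 and 9.20 in Atm+/+ (0.54 ± 0.26, adjusted p = 0.218). Gldc, the glycine decarboxylase of the glycine cleavage system, read 11.50 and 11.38 in Atm-/- and 11.19 and 10.87 in Atm+/+ (0.42 ± 0.26, adjusted p = 0.332). The smallest adjusted p of the list belonged to Ddo, which encodes D-aspartate oxidase, the relative of Dao that acts on acidic D-amino acids. Ddo at ILMN_2693185 read 8.55 and 8.52 in Atm-/- and 9.58 and 9.28 in Atm+/+ (-0.89 ± 0.26, adjusted p = 0.0647). Psat1, a serine synthesis enzyme, differed by -0.78 ± 0.30 (adjusted p = 0.129).

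Other carriers and partner proteins likewise gave no call at the brightest probe. Of 7 tested carriers of neutral amino acids 0 passed in limma and 1 was lower at an unadjusted p under 0.05, with a median of -0.59. The carrier of smallest p was Slc38a2 at -0.92 ± 0.26 (adjusted p = 0.0591). Slc32a1, which loads glycine and GABA into synaptic vesicles, read 13.67 and 13.58 in Atm-/- and 13.59 and 13.55 in Atm+/+ (0.06 ± 0.25, adjusted p = 0.905). Of 6 tested genes of the inhibitory postsynapse 0 passed, and 1, the dynein light chain gene Dynll2, was higher at an unadjusted p under 0.05 (1.47 ± 0.40, adjusted p = 0.0543). Gphn, which encodes gephyrin, differed by -0.12 ± 0.29 at its brightest probe (adjusted p = 0.825). Its other tested probes differed by -0.72 ± 0.28 at ILMN_2910995 (adjusted p = 0.132), 0.05 at ILMN_1214092 and 0.08 at ILMN_2545063, and none passed. Glra4, a further alpha subunit gene, read 5.58 and 5.80 in Atm-/- and 5.78 and 5.63 in Atm+/+, at the edge of background. Of 4 tested genes whose products are known to bind serine racemase 0 passed at the brightest probe and 2 were higher at an unadjusted p under 0.05.

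NMDA receptor subunits, on which D-serine and glycine act as co-agonists, moved both ways. Of 3 tested subunit genes, Grin2b rose and Grin3b fell. Grin2b, a subunit prominent in the forebrain, read 8.60 and 8.56 in Atm-/- and 6.59 and 6.95 in Atm+/+ at ILMN_2547237 (1.81 ± 0.26, adjusted p = 0.00665). Its other probes, ILMN_2548201 and ILMN_2617352, were at background on all 4 arrays. Grin3b, a subunit of motor neurons that binds glycine, was at background in Atm-/- and read 7.29 and 6.70 in Atm+/+, at least 2.56-fold lower in Atm-/- (adjusted p = 0.0179). Grin3a, which also binds glycine, read 12.32 and 12.21 in Atm-/- and 12.11 and 11.84 in Atm+/+ (adjusted p = 0.504). The probes of Grin2a, Grin2c and Grin2d were too dim to be tested, and Grin1 was not analysed here because no probe carries its symbol alone.

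**Figure D4:**
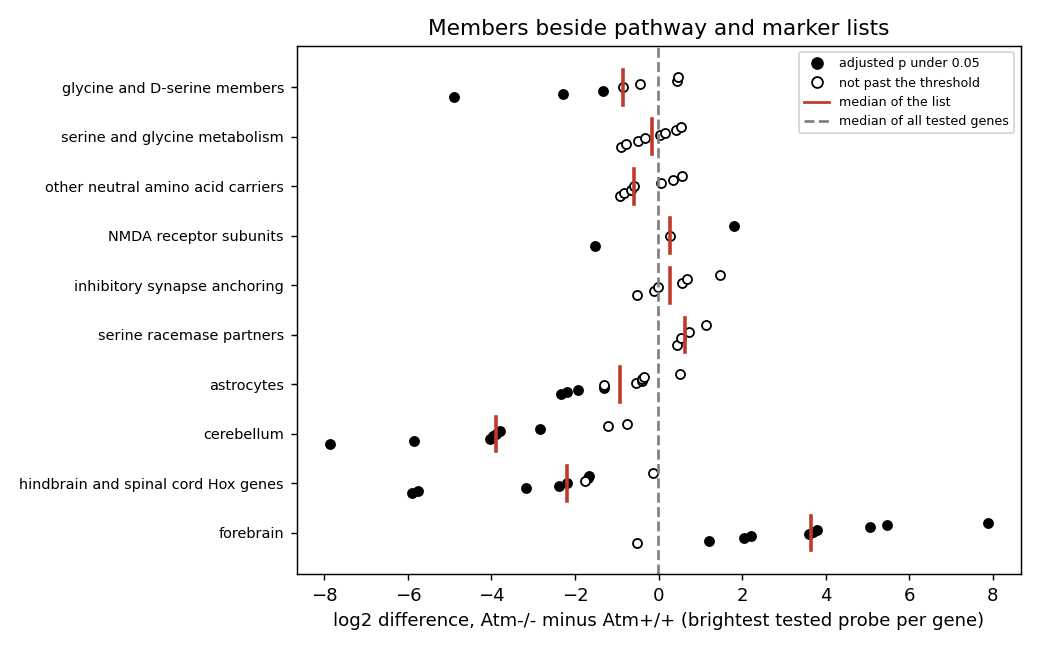
Log2 difference, Atm-/- minus Atm+/+, of each gene's brightest tested probe for the members and 9 other lists; filled points passed an adjusted p under 0.05, red lines are list medians and the dashed line is the median of all genes (-0.01). The members spread from -4.90 to 0.48, the cerebellar and Hox genes lie left of 0, and 9 of 10 forebrain genes lie right of it with a filled point.

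The probes whose 4 values most resembled those of each called member, after subtraction of the probe's mean, were picked by Euclidean distance in log2 units. With 4 arrays the measure describes these arrays alone. For Dao ILMN_2862633 they were Kcng4 at a distance of 0.290, Lrrc57 at 0.474 and Pou6f1 at 0.488. For Glra1 they were Icmt at 0.168, the astrocyte gene Gfap at 0.172 and Dctn1 at 0.191. For Slc6a9 they were Nqo2 at 0.0484, Slc44a1 at 0.0646 and Tmem98 at 0.0743, and for Srr ILMN_2622605 Cnksr2, Slc35f1 and Extl1 at 0.110 to 0.113. The distances at Dao were the largest of the 4 sets. Distances were not scaled by the size of the difference, which was also widest at Dao, so they do not rank how distinct the patterns are.

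Upstream sequences are shown for the 3 members with a call that have an entry in the RefSeq promoter table (build GRCm38.p6), because the series concerns a histone mark that in mammals is laid down largely at promoters rich in CG dinucleotides. Each run is the 250 bases before the most upstream start listed for the gene, 5′ to 3′, with CG in capitals. CG reads the same on both strands, and no other motif was searched. The windows are chr5:114003485-114003734 on the plus strand for Dao, chr4:117835008-117835257 on the plus strand for Slc6a9 and chr11:74925949-74926198 on the minus strand for Srr.
Dao: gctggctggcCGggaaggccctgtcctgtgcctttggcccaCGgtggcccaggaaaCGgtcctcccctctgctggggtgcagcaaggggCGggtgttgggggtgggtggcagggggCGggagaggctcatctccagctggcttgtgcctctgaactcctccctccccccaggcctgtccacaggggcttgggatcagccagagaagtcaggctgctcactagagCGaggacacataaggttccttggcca
Slc6a9: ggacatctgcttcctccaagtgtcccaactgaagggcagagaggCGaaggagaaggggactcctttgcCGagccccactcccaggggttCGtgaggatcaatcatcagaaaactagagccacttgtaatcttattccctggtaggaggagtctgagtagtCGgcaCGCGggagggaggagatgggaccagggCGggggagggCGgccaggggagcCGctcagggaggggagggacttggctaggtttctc
Srr: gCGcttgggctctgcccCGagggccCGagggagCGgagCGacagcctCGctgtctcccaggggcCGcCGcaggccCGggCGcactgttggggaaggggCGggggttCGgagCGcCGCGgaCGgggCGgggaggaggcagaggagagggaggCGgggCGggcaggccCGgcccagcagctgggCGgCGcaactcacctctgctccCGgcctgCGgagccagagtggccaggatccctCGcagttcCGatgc
The Dao window holds 6 CG, the Slc6a9 window 9 and the Srr window 26. Over the 32851 windows of 27025 genes in the table the median was 6, and 50.4% held at least 6, 40.3% at least 9 and 9.59% at least 26. Further starts of Dao held 2 and 8 CG and those of Slc6a9 10 and 8. Of the other members, Glrb had 20, Slc7a10 14, Glra2 8 and Glra3 4, Slc6a5 had 11 and 7 at its listed starts, and 8 of the 9 members had an entry. These counts are a description, and no histone mark was measured on these arrays.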

How the data were processed

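The values used were log2 probe signals that the authors deposited as processed values for 4 arrays. How the signals were background-treated and normalized, and with which software, is not given in the sources used here. Base 2 was inferred from the range of 4.47 to 16.1. Sorted arrays matched rank by rank to within 0.0792, as after quantile normalization, which would hide a shift common to most genes. A table of signals before normalization holds 8 columns whose names match no sample label, and these were not used. The background level was the mode of all values, 5.05, plus 3 SD of the values under it (0.195). Probes above it on at least 2 arrays were tested, 22383 in all. The test was limma 3.58.1 under R 4.3.3 (lmFit, then eBayes, no covariate), with Benjamini-Hochberg adjustment over all tested probes. The procedure was tested on simulated data with the same spread for every probe and array. That simulation does not cover the wider spread of the Atm+/+ arrays. The fit had 2 residual and 5.22 prior degrees of freedom. A probe at or below the level on both arrays of a genotype gives a bound, the other genotype's mean over the level. The number of arrays limits the precision. All 16 member probes matched the same symbol in an NCBI RefSeq gene table by gene identifier. The members, the 9 other lists and the tests were chosen with earlier results of these data known. Every member probe is given, and of each list up to 4 genes of smallest p and those a statement needs. Alternatives were other filters, variance models, scalings, a replicate block and leaving out each array.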

Additional observations from a re-analysis of the deposited data

How the results depend on the processing

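Of the 118 alternative fits of single member probes, 106 kept their direction and side of the threshold. Calls were lost or gained only when an array was left out, and the 1 change of sign was Srr ILMN_1227814, whose difference ran from -0.0578 (without Atm+/+ replicate 1) to 0.24 (without replicate 2) over the left-out arrays. Left-out arrays moved the 5 member calls to 1 to 7, the 4 falls to 1 to 6 and the 1 rise to 0 to 2. Over all tested probes they moved 2919 calls to between 666 and 8320, and 1357 falls to between 256 and 4146; the low counts came without an Atm-/- array, when 1 sample stands for that genotype and its spread is taken from Atm+/+. The high counts came without an Atm+/+ array, when the spread is taken from the close Atm-/- arrays alone. A member call gained in such a fit therefore says little about that member. Testing only probes above background on all 4 arrays left 3 member calls and 2 falls, because fewer probes were tested. Same-numbered samples share only a number (their deviations correlated at 0.0590). With a replicate block the members kept 5 calls, while all calls became 4574 and all falls 2196. With the background level at 2 SD or 4 SD, 4 or 5 member probes were at background on all arrays, and 2 or 4 on the Atm-/- arrays alone. Median centring moved the median difference by 0.00415. Normalization of the unprocessed signals was not run, since their columns carry no sample label. The 2 arrays per genotype limit what can pass the threshold.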

Other observations

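Among genes whose products bind serine racemase, calls appeared at probes other than the brightest. Pick1, whose PDZ domain binds the enzyme, rose at ILMN_1246720, with 8.28 and 8.16 in Atm-/- against 7.17 and 6.86 in Atm+/+ (1.20 ± 0.26, limma adjusted p = 0.0270). Its brightest probe, ILMN_2628488, read 11.87 and 11.75 in Atm-/- and 11.45 and 9.89 in Atm+/+ and did not pass (adjusted p = 0.164). Grip1, another PDZ protein, rose at ILMN_2685318 by 1.28 ± 0.32 (adjusted p = 0.0425), with 9.46 and 9.51 in Atm-/- against 8.60 and 7.82 in Atm+/+, a call that was lost with no filter on dim probes (adjusted p = 0.0805). Its other tested probes did not pass, ILMN_3126646 at 0.74 ± 0.27 (adjusted p = 0.114) and ILMN_2491265 at 0.33 ± 0.28 (adjusted p = 0.468).

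Ddo had 4 tested probes. All 4 differences lay between -0.89 and -0.60 and none passed the threshold (limma adjusted p 0.0647 to 0.160), and at each probe both Atm-/- arrays were below both Atm+/+ arrays. The probes share their samples and are not independent of each other.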
